A study of Mus musculus with 32 samples.

Results

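The 38 genes described here are the enzymes and transporters of glycolysis together with genes of the cellular response to low oxygen. They were chosen by function, as a fixed list of mouse gene symbols, with earlier results of these data known. All 38 were found among the 35968 genes of the deposited tables, and all 38 passed the filter on low counts that left 17159 genes for testing. They were measured by RNA sequencing of CD4 T cells sorted by flow cytometry from the liver and spleen of male C57BL/6 mice that carry the Foxp3GFP reporter, an allele that every group shares. The gate was TCRb+CD4+Foxp3+ for regulatory T cells (Treg), and TCRb+CD4+Foxp3- for conventional T cells (Tconv). Mice were either controls or had been given carbon tetrachloride (CCl4), a compound that injures hepatocytes and is used to cause liver damage and fibrosis. Each of the 4 populations (liver Treg, liver Tconv, spleen Treg and spleen Tconv) had 3 control and 5 CCl4 libraries, 32 in all. The sources used here give neither the age of the mice nor the dose and duration of CCl4. Whether each library is a different animal is not stated, and the p-values then measure only the spread between libraries, which may be technical.

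Glycolysis turns glucose into pyruvate in the cytosol. Pyruvate is then either reduced to lactate, which leaves the cell through monocarboxylate transporters, or oxidised in mitochondria by the pyruvate dehydrogenase complex. Activated effector T cells are known for high glycolysis, whereas Treg are known to rely more on mitochondrial oxidation. When oxygen is low, prolyl hydroxylases (the Egln genes) no longer mark the alpha subunits of hypoxia-inducible factor (HIF) for destruction by the von Hippel-Lindau protein. HIF then raises transcription of many glycolytic genes, of its own regulator Egln3 and of genes of autophagy, protein folding, collagen synthesis and vessel growth.

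Libraries held 24513124 to 75292019 estimated counts, and the 38 genes took between 0.849% and 1.169% of them. Foxp3, which defined the gate, ranged from 909 to 1176 CPM (counts scaled to library size, TMM-normalised) in the 16 Treg libraries and from 0.681 to 3.43 CPM in the 16 Tconv libraries. Some features of the whole libraries move with the tissue comparison, and some of these also with the comparison of Treg and Tconv. The heat shock gene Hspa1a ranged from 1959 to 8601 CPM in liver and from 7.82 to 121 CPM in spleen. The summed level of 10 hepatocyte markers was 6.18 to 319 CPM in liver and 0.24 to 1.84 CPM in spleen. In liver controls these markers summed to 39.5 to 71.5 CPM in Treg and 87 to 259 CPM in Tconv. After CCl4 the liver ranges overlapped, at 6.18 to 220 and 87.5 to 319 CPM. The heat shock gene Hspa1b averaged 3465 ± 501 CPM in liver Treg and 9092 ± 1629 in liver Tconv (SD, n = 8). In spleen it averaged 95.6 ± 60.1 CPM in Treg and 221 ± 100 in Tconv. Spleen control libraries 2 and 3 of both cell types stood apart, with Fos, an immediate early gene, at 19.4 to 26.4 CPM against 711 to 1116 CPM in the other 12 spleen libraries. The part of these features in the results below was not tested, except where a value without those libraries is given.

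Levels were compared between genes as deposited TPM (each transcript's share of a library after division by transcript length) summed over each gene's transcripts. The same 5 genes led in all 4 populations. Gapdh, which makes the first energy-rich intermediate, averaged 1713 ± 126 TPM in liver Treg (SD, n = 8). Ldha, the lactate dehydrogenase subunit that favours lactate formation, averaged 1549 ± 69.1 TPM there. Enolase Eno1, pyruvate kinase Pkm and aldolase Aldoa followed at 1074 ± 109, 1067 ± 101 and 769 ± 172 TPM. The Eno1 and Pkm means of liver Treg differed by less than their SDs. In spleen Tconv the order was Eno1 (1412 ± 94.1), Ldha (1228 ± 126), Gapdh (924 ± 62.8), Pkm (867 ± 47.9) and Aldoa (710 ± 32.7).

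Steps with several isoforms used them at unequal levels. Hexokinase, which traps glucose in the cell, was mostly Hk1, at 96 ± 20.6 TPM in liver Treg against 2.82 ± 1.09 TPM of Hk2. Phosphofructokinase, the committed step, was mostly Pfkp (241 ± 28.2 TPM) and Pfkl (162 ± 16.8 TPM), with the muscle isoform Pfkm at 7.85 ± 1.84 TPM. Of the aldolases, Aldoc averaged 20.8 ± 3.64 TPM in liver Treg. The lowest 3 genes of the 38 in liver Treg were Slc16a5 of the monocarboxylate transporter family (0.473 ± 0.52 TPM), the HIF-2 alpha subunit Epas1 (2.01 ± 0.607 TPM) and the vascular growth factor Vegfa (2.43 ± 1.04 TPM). Hif1a, the HIF-1 alpha subunit, averaged 307 ± 42.1 TPM in the same libraries.

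Pyruvate kinase has splice forms that carry either of 2 mutually exclusive exons. The M1 form is constitutively active, and the M2 form, found in proliferating cells, is allosterically regulated. Both exons are 167 bases long and lie next to each other in the coding part of Pkm, the M1 exon at chr9:59675029-59675195 and the M2 exon at chr9:59675568-59675734 (GRCm38, plus strand, read from the GENCODE M21 transcripts). They are shown because the isoform share compares the 2 transcripts that carry them, Pkm-202 (M1) and Pkm-201 (M2). The share uses counts estimated for whole transcripts and not reads counted on these exons. Whether the transcripts also differ at their ends was not checked. Capitals mark the 64 positions at which the exons differ, which leaves 61.7% identity.
Pkm M1 exon: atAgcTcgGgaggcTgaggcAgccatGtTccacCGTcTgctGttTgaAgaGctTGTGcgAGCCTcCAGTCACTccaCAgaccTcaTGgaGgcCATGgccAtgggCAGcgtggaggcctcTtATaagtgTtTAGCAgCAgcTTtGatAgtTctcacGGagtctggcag
Pkm M2 exon: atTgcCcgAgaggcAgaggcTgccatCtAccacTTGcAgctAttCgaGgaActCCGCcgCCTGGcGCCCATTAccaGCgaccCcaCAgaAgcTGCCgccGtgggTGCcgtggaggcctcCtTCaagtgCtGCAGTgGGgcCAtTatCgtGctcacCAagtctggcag

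Of the estimated counts on these 2 transcripts, the M2 form held between 94.9% and 97.7% in every one of the 32 libraries. Liver Treg stood at 97.7%, 96.3% and 96.7% in the controls and at 96.7%, 96.9%, 96.2%, 96.6% and 96.1% after CCl4. The M1 form was thus the minor form in every group. By two-sided exact permutation tests of the mean share, none of the 8 main comparisons passed after Benjamini-Hochberg adjustment over the 8. The lowest exact p was 0.0179 (adjusted p = 0.143), for spleen Tconv, where the mean was 96.1% ± 0.24 after CCl4 and 96.8% ± 0.24 in controls (SD, n = 5 and 3). With 3 against 5 libraries 0.0179 is also the smallest p the test can give.

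Most of the 38 genes differed between liver and spleen in each cell type. Liver against spleen was tested in each cell type, averaged with equal weight over control and CCl4 libraries. A gene was called at a Benjamini-Hochberg adjusted p under 0.05 over all 17159 genes, by edgeR's quasi-likelihood test. In Treg 22 of the 38 genes were higher in liver and 7 were lower, where 60.6% of all genes were called, 30.1% higher and 30.5% lower. In Tconv 18 were higher and 10 lower, where 55% of all genes were called, 27.2% higher and 27.7% lower. Libraries of the tissues did not overlap, within controls and within CCl4 libraries, for 20 of the 38 genes in Treg (29.1% of all genes) and 18 in Tconv (25.7%). The median log2 fold change was 0.29 in Treg and 0.14 in Tconv beside 0.04 over all genes in both. In bulk libraries, fewer cells that express a gene and less RNA per cell cannot be told apart. Of the 22 and 18 higher genes 16 were shared, of the lower ones 7 were shared, and 0 were called in opposite directions. Sharing over all genes was not counted, so whether the 38 genes are unusual in this is not known.

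**Figure D1:**
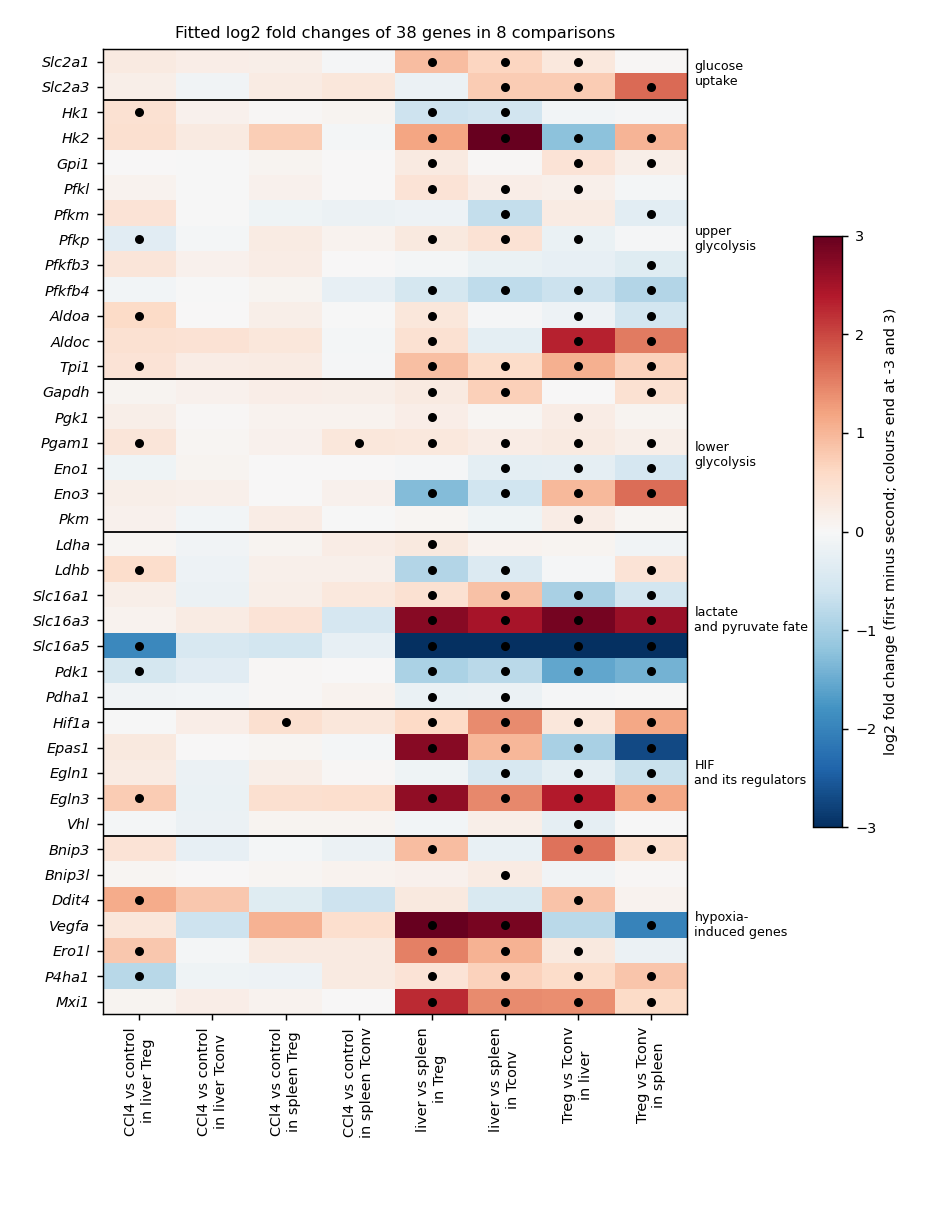
Fitted log2 fold changes (colour, ending at -3 and 3) of the 38 genes (rows, grouped by role) in the 8 main comparisons (columns); black dots mark calls at an adjusted p under 0.05. Each of the 4 right-hand columns of tissue and cell type has 26 to 29 calls, while CCl4 gave 12 calls in liver Treg and at most 1 in each other population.

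Slc2a1 was higher in liver in both cell types and Slc2a3 in Tconv. Slc2a1, the basal glucose transporter, ran from 133 to 177 CPM (lowest and highest, median 163) in the 8 liver Treg libraries and from 61.4 to 94.4 CPM (median 83.7) in spleen Treg. These ranges do not overlap, and the fitted difference was 1.91-fold (log2 0.93 ± 0.08, SE, adjusted p = 1.79e-11). In Tconv Slc2a1 was 1.56-fold higher in liver. Slc2a3, the high-affinity transporter, was 1.7-fold higher in liver in Tconv (log2 0.76 ± 0.09, adjusted p = 4.77e-08), with 99.7 to 161 CPM in liver and 58.5 to 92.9 in spleen. In Treg its ranges overlapped, 171 to 238 CPM in liver and 191 to 283 in spleen, and it was not called (log2 -0.18 ± 0.09, adjusted p = 0.0924). The difference between those effects was itself called (log2 -0.94 ± 0.13, adjusted p = 4.21e-06).

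Among the enzymes of upper glycolysis the hexokinases went opposite ways. Hk2, the inducible and HIF-responsive hexokinase, stood at 11.4 to 26.2 CPM in liver Tconv (median 13.9) and 0.346 to 2.83 CPM in spleen Tconv (median 1.25). That is a fitted 10.7-fold difference (log2 3.41 ± 0.34, adjusted p = 1.59e-09) of a gene that is scarce in every group. In Treg Hk2 was 2.26-fold higher in liver (log2 1.18 ± 0.31, adjusted p = 0.00196), with 3.93 to 10.6 CPM against 1.21 to 5.19. Without spleen controls 2 and 3 this call in Treg was lost (adjusted p = 0.0899). Hk1, the far more abundant housekeeping form, was lower in liver in both cell types, at 0.649 times the spleen level in Treg and 0.67 times in Tconv. In Treg it ran from 128 to 251 CPM in liver and from 257 to 341 CPM in spleen, without overlap.

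Triosephosphate isomerase Tpi1 was 1.88-fold higher in liver Treg (188 to 339 CPM against 123 to 185) and 1.46-fold higher in liver Tconv. The phosphofructokinase isoforms Pfkl and Pfkp were 1.14-fold to 1.35-fold higher in liver in both cell types, whereas Pfkm was lower in liver Tconv (0.613 times) and not called in Treg. Within the CCl4 libraries alone the Treg difference of Pfkp was absent (log2 -0.0034, adjusted p = 0.978). Pfkfb4, which makes the activator of phosphofructokinase, was lower in liver in both cell types, but its call in Treg was lost without liver Treg control 2 (log2 -0.43, adjusted p = 0.0508) and without spleen controls 2 and 3 (adjusted p = 0.112). Pfkfb3, the other such enzyme on the list, was not called in either.

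In lower glycolysis Gapdh was 1.65-fold higher in liver Tconv, at 1049 to 1502 CPM against 690 to 862, without overlap. In Treg Gapdh was 1.22-fold higher, a call that was lost without spleen controls 2 and 3 (adjusted p = 0.0541). Gapdh has 91 near-identical copies in the annotation, which took 4.55% to 15% of the counts of the gene and its copies, and the same calls were made with the copies added to it. Phosphoglycerate kinase Pgk1 was 1.14-fold higher in liver Treg, and its call was lost without liver Treg control 2 (log2 0.13, adjusted p = 0.0854) and without spleen controls 2 and 3 (adjusted p = 0.171). Eno3, the muscle enolase, was lower in liver in both cell types. In Treg it ran from 15 to 25.3 CPM in liver and from 41.6 to 57.5 CPM in spleen, a difference of -1.30 ± 0.11 on the log2 scale (adjusted p = 6.35e-11). Pkm was not called in either cell type.

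The genes grouped here under the fate of pyruvate and lactate moved in both directions. Slc16a3, the lactate exporter known as MCT4 and a HIF target, was 6.66-fold higher in liver Treg (log2 2.74 ± 0.16, adjusted p = 8.9e-15). It stood at 107 to 134 CPM in the 8 liver Treg libraries (median 120) and at 12.6 to 31.3 CPM in spleen Treg (median 16.1). In Tconv it was 5.55-fold higher in liver, at 13.4 to 19.7 CPM against 1.94 to 4.53. Slc16a5 (MCT6), grouped here by its family and not for a known transport of lactate or pyruvate, differed in the reverse direction. It ran from 93.4 to 141 CPM in spleen Tconv, from 5.54 to 16.3 in liver Tconv, from 3.96 to 9.81 in spleen Treg and from 0 to 1.16 in liver Treg. None of these 4 ranges overlap except liver Tconv with spleen Treg. In Tconv its liver level was 0.0995 times the spleen level (log2 -3.33 ± 0.23).

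Slc16a1 (MCT1), which carries lactate and pyruvate either way, was 1.85-fold higher in liver Tconv and 1.38-fold higher in liver Treg. Pdk1, the kinase that switches off pyruvate dehydrogenase and is also a known HIF target, was lower in liver. Its ranges were 60 to 116 CPM in liver Treg, 159 to 179 in spleen Treg, 148 to 303 in liver Tconv and 374 to 563 in spleen Tconv. Its fitted ratio of liver to spleen was 0.514 in Treg and 0.572 in Tconv. The lactate dehydrogenase subunit Ldhb, which favours pyruvate formation, was also lower in liver, at 0.545 times in Treg and 0.746 times in Tconv. Within control libraries alone the Tconv call of Ldhb was lost (adjusted p = 0.206). Ldha was 1.23-fold higher in liver Treg (1194 to 1427 CPM against 1025 to 1216, log2 0.29 ± 0.06) and was not called in Tconv. Other tissue calls were lost within control libraries alone, those of Pfkfb4 (adjusted p = 0.214), Aldoa (0.196), Aldoc (0.134), Pgk1 (0.198), Pgam1 (0.0739) and Pdha1 (0.12) in Treg and of Pfkl (0.0557) and Pdha1 (0.401) in Tconv. That of Pgam1 in Tconv was lost within CCl4 libraries alone (adjusted p = 0.346).

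Both HIF alpha subunits and the feedback hydroxylase Egln3 were higher in liver. Hif1a ran from 515 to 672 CPM in liver Tconv (median 593) and from 186 to 311 CPM in spleen Tconv (median 219), a 2.67-fold difference without overlap (log2 1.42 ± 0.08, adjusted p = 8.93e-15). In Treg it was 1.51-fold higher, with 636 to 825 CPM against 384 to 675. Epas1 ran from 4.99 to 11.6 CPM in liver Treg and from 0.777 to 1.35 CPM in spleen Treg (6.7-fold, log2 2.74 ± 0.19). Egln3 ran from 58.6 to 147 CPM in liver Treg (median 101) against 9.15 to 21.8 CPM in spleen Treg (median 15.9), which is 6.33-fold (log2 2.66 ± 0.14, adjusted p = 1.25e-15). In Tconv Egln3 was 2.71-fold higher in liver, at 14.2 to 21.8 CPM against 5.11 to 8.99. Egln1, the main oxygen sensor, was lower in liver Tconv (0.711 times) and not called in Treg. Vhl was not called in either cell type.

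Of the 7 hypoxia-induced genes outside glycolysis, 5 were higher in liver Treg and 5 in liver Tconv, and none was lower. Of all genes, 30.1% were higher in liver Treg and 27.2% in liver Tconv. Ero1l, an oxidase of protein folding, ran from 110 to 227 CPM in liver Treg and from 44.8 to 71 CPM in spleen Treg (2.87-fold, log2 1.52 ± 0.09). In Tconv Ero1l was 2.07-fold higher in liver. Mxi1, a repressor that competes with MYC for its partner MAX, ran from 187 to 320 CPM in liver Treg (median 274) and from 50.9 to 65.8 CPM in spleen Treg (median 56.2). That 4.74-fold difference (log2 2.24 ± 0.11) had the lowest adjusted p of the 38 genes in this comparison, 2.55e-16. Vegfa stayed below 10 CPM everywhere, at 1.35 to 6.92 in liver Treg and 0.0209 to 0.533 in spleen Treg. Its fitted log2 fold change of 4.05 ± 0.55 rests on few reads in spleen.

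P4ha1, a collagen prolyl hydroxylase, was higher in liver in both cell types (1.34-fold in Treg, 1.62-fold in Tconv). Within the CCl4 libraries alone its Treg call was lost (adjusted p = 0.642). Bnip3, a mitophagy receptor, was 1.9-fold higher in liver Treg (20.5 to 37 CPM against 12.8 to 18.2) and was not called in Tconv. Its relative Bnip3l was called in Tconv (1.19-fold) but not in Treg, and without spleen controls 2 and 3 that call was lost (adjusted p = 0.0724). Ddit4, an inhibitor of the growth kinase complex mTORC1, was called in neither cell type. Its direction depended on the libraries used. The liver to spleen difference in Treg was -0.44 in controls alone, 1.04 in CCl4 libraries alone (adjusted p = 0.000582) and 0.69 without spleen controls 2 and 3 (adjusted p = 0.0134), all on the log2 scale.

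**Figure D2:**
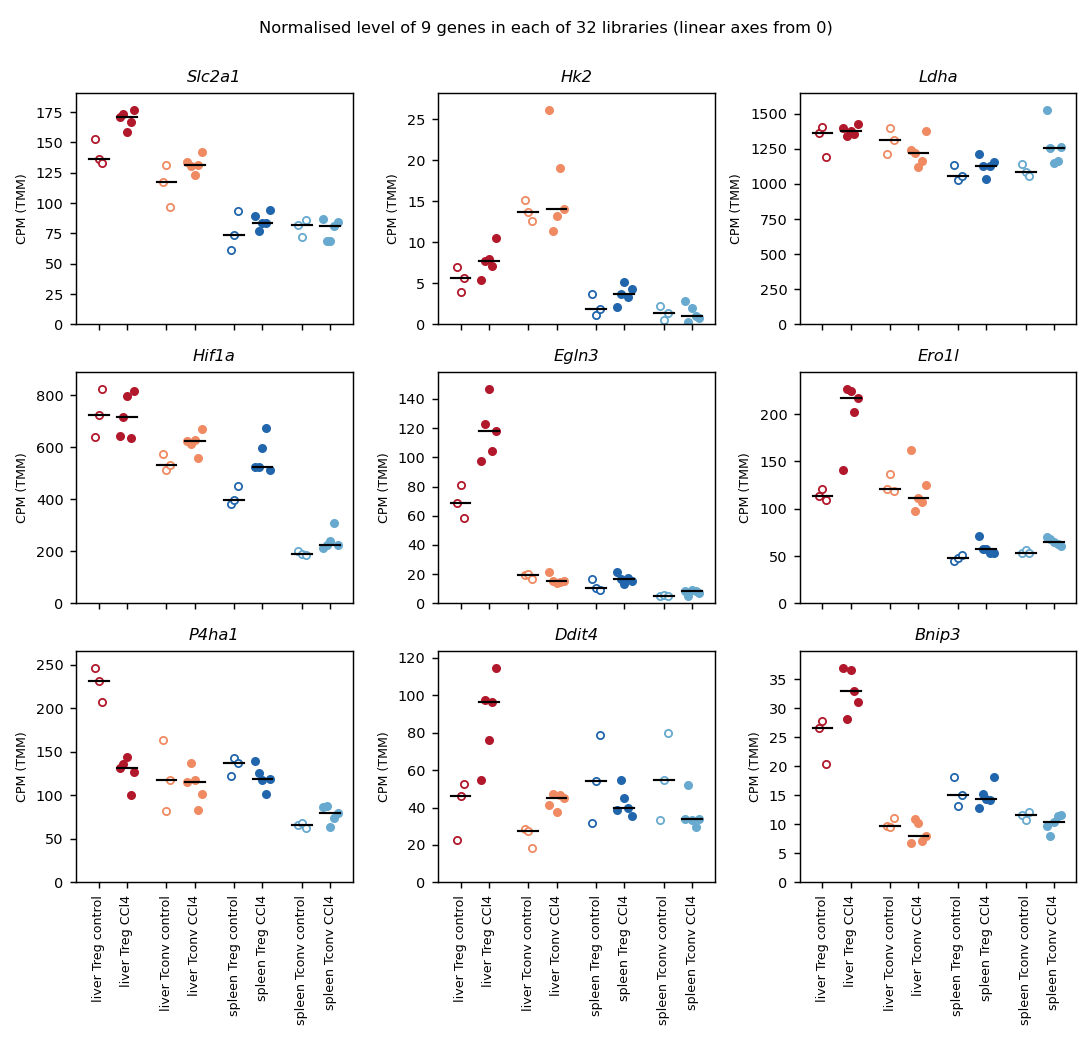
Normalised level (CPM, linear axes from 0) of 9 of the genes in each of the 32 libraries; open circles are controls, filled circles CCl4 libraries and bars the group medians. Egln3 exceeds 58 CPM only in the 8 liver Treg libraries, and P4ha1 runs from 207 to 246 CPM in liver Treg controls and from 99.8 to 144 CPM after CCl4.

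The 250 bases before each annotated start were searched on both strands for the letters ACGTG, a form of the core that HIF binds (RefSeq promoters, GRCm38.p6). On the opposite strand the match reads CACGT, and a palindromic CACGTG, the E-box that MAX and its partners bind, counts as a match too. The other form of the core, GCGTG, was not searched. A gene with several starts was counted if the letters were present before any of them. Of the 38 genes 34 had a promoter entry, and Slc2a3, Slc16a5, Epas1 and Bnip3l did not. The letters were present in 20 of the 34 (58.8%), beside 4998 of 27025 genes with an entry (18.5%). CACGTG was present in 6 of the 34 (17.6%) beside 6.86% of all genes. The list holds many textbook HIF targets, so this share describes the list and not these cells.

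By direction of the tissue difference, the matches were present in 11 of the 15 genes with an entry that were higher in liver in both cell types (73.3%). Of these 11, Vegfa and Mxi1 have more than 1 RefSeq start, and each had a start without a match. Which starts these cells use was not considered in the counts. ACGTG matches were present in 0 of the 6 that were lower in both, and in 9 of the other 13 (69.2%). Pfkl, Pfkp, Tpi1 and Gapdh were higher in liver in both cell types and have no ACGTG match. These counts leave out GCGTG. That form lies in the last 60 bases before the start of Gapdh and of Pdha1, which was lower in both cell types. The stretches below are examples and not a full set. They show the match nearest the start (and any other close to it) in capitals with up to 20 bases on either side. Of these genes, Ldha and Pgk1 were called in Treg only. For Pdk1 and Ldhb, which were lower in liver and have no match in the 250 bases, the last 60 before the start are shown. A match describes letters only, and no binding was measured.
Hk2, chr6:82774482-82774526, minus strand: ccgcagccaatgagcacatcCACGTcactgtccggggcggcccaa
Egln3, chr12:54204079-54204123, minus strand: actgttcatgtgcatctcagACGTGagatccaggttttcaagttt
Ero1l, chr14:45318611-45318655, minus strand: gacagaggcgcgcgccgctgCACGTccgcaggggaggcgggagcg
P4ha1, chr10:59323260-59323295, plus strand: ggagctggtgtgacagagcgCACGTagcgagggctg
Ldha, chr7:46845750-46845794, plus strand: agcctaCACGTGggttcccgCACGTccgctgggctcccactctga
Pgk1, chrX:106186930-106186993, plus strand: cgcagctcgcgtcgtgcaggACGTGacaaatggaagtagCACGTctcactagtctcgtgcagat
Pdk1, chr2:71873164-71873223, plus strand: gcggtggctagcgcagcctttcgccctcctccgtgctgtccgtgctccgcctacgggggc
Ldhb, chr6:142507958-142508017, minus strand: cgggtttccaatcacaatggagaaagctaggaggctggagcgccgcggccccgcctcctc

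Mxi1 is transcribed from start sites that lie far apart on chromosome 19, and the deposited transcript counts separate them. Transcript Mxi1-201 begins at a distal first exon (chr19:53310518-53310973, GRCm38), while 5 transcripts begin at a proximal cluster, of which Mxi1-203 starts at 53329413. This split was looked at after the values were seen and is given as a description with no test. The RefSeq proximal start has an ACGTG match 66 bases upstream, in capitals, and the RefSeq distal start has none in its 250 bases, of which the last 60 are printed.
Mxi1 proximal, chr19:53329327-53329371, plus strand: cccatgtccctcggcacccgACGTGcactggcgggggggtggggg
Mxi1 distal, chr19:53310446-53310505, plus strand: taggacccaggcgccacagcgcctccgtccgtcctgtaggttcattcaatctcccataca

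The distal transcript held 62.4% to 69.1% of Mxi1 estimated counts in liver Treg controls and 60.6% to 67.7% after CCl4. In liver Tconv the share was 33.6% to 42.6% and 30.4% to 49.8%, in spleen Treg 30.5% to 38.5% and 37% to 44.6%, and in spleen Tconv 6.01% to 14% and 11.5% to 21.1%. Liver Treg therefore lay above every other library, and spleen Tconv below every other library. In CPM the distal transcript averaged 169 ± 5.14 in liver Treg controls and 3.58 ± 1.92 in spleen Tconv controls (SD, n = 3). The proximal transcripts averaged 77.5 ± 10.8 and 33.1 ± 3.08 CPM in the same groups, a narrower span. Assignment of reads between transcripts is an estimate by the authors' quantification, and its error is not given in the tables.

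**Figure D3:**
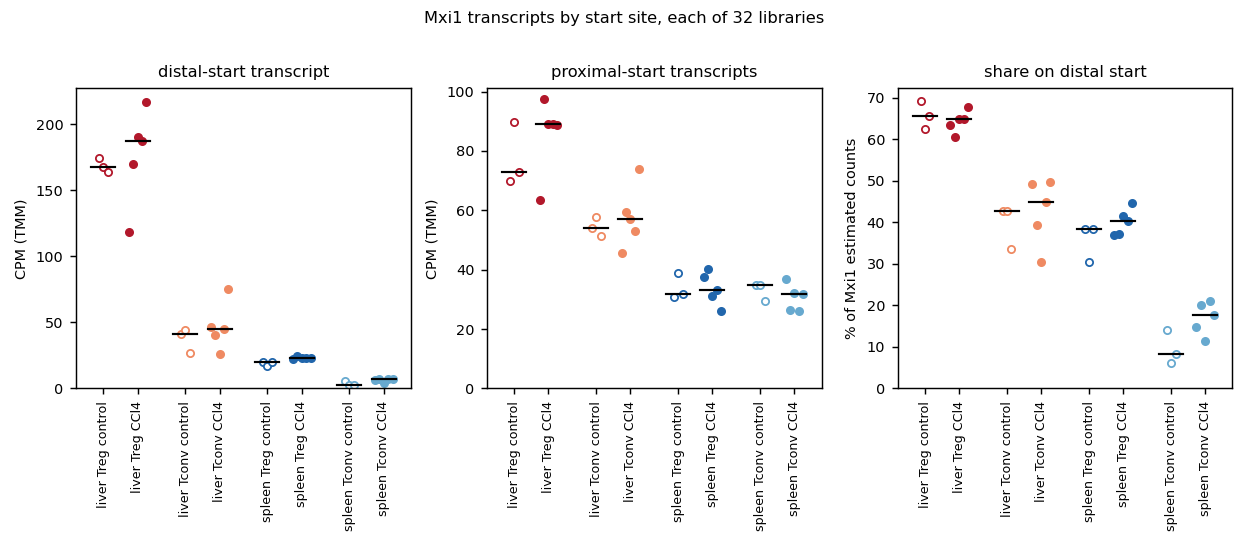
Estimated level (CPM) of the distal-start transcript and of the proximal-start transcripts of Mxi1, and the distal share (% of Mxi1 estimated counts), in each of the 32 libraries; open circles are controls, filled circles CCl4 libraries, bars group medians, and all axes start at 0. The distal share is above 60% in all 8 liver Treg libraries and at most 49.8% elsewhere.

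The tissue effects differed between the cell types for 16 of the 38 genes, 9 with a more positive and 7 with a more negative log2 value in Treg, where 19.4% of all genes were called in this test of the difference, 7.02% positive and 12.4% negative. A larger liver excess in Treg was found for Epas1 (difference 1.75 ± 0.25 on the log2 scale, adjusted p = 7.46e-06), Egln3 (1.22 ± 0.19), Bnip3 (1.14 ± 0.16), Mxi1 (0.82 ± 0.15) and Ero1l (0.47 ± 0.13). Aldoc, Pfkm, Aldoa and Egln1 also had a more positive value in Treg, by 0.36 to 0.75. A larger liver excess in Tconv was found for Hk2 (-2.24 ± 0.44, adjusted p = 0.000495), Slc2a3, Hif1a (-0.83 ± 0.11), Gapdh (-0.44 ± 0.09) and Slc16a1 (-0.43 ± 0.10). The liver deficit of Eno3 (-0.71 ± 0.16) and Ldhb (-0.45 ± 0.15) was deeper in Treg. Within control libraries alone the difference of Ero1l was 0.05 (adjusted p = 0.956), and without spleen controls 2 and 3 its call was lost (adjusted p = 0.0694). Aldoc was lost within controls alone (adjusted p = 0.0558), within CCl4 libraries alone (0.124) and without spleen controls 2 and 3 (0.0917). Slc16a1 was lost within CCl4 libraries alone (log2 -0.18, adjusted p = 0.344) and without spleen controls 2 and 3 (0.0532). Within controls alone the calls of Egln3 (log2 0.74, adjusted p = 0.144), Hk2 (0.0974), Gapdh (0.0968), Eno3 (0.0583), Aldoa (0.446) and Egln1 (0.369) were lost too. The calls of Ldhb and Pfkm were lost by leaving out single libraries, without spleen controls 2 and 3 (adjusted p = 0.0942 and 0.0676), and within CCl4 libraries alone for Ldhb (0.737) and controls alone for Pfkm (0.533). Ldhb was lost when any of liver Treg control 1 or 2, liver Tconv control 3, spleen Treg control 1 or spleen Tconv control 2 was left out (adjusted p up to 0.0694). Pfkm was lost without liver Treg control 1, liver Tconv control 1 or 2, or spleen Treg control 1 (adjusted p up to 0.0745). Without spleen controls 2 and 3 the count fell to 12, and within the control libraries alone it was 7.

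**Figure D4:**
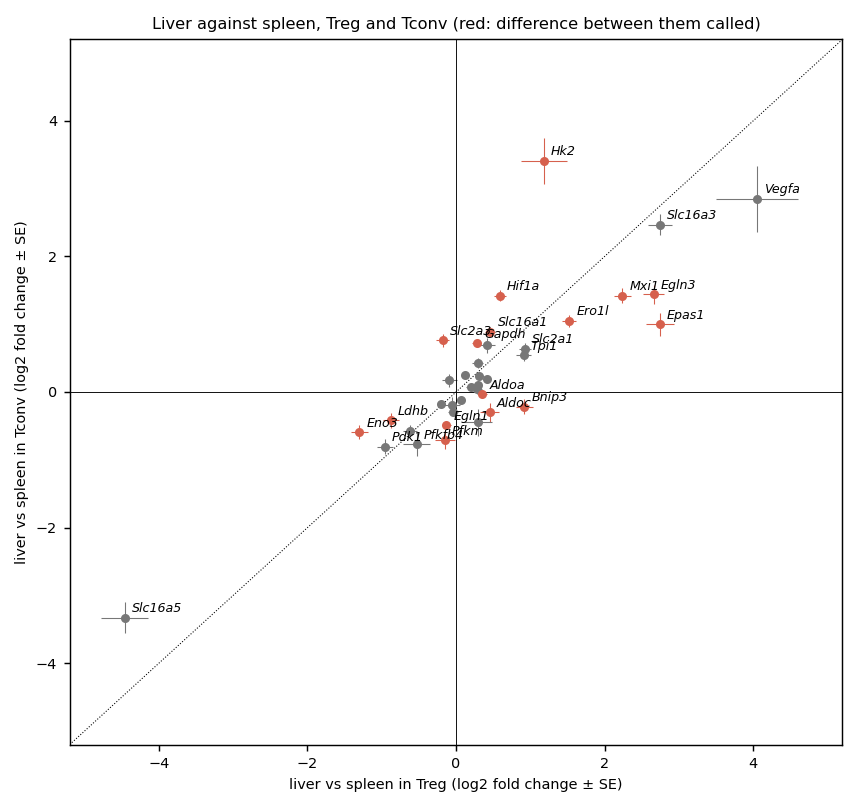
Liver against spleen (log2 fold change ± SE) in Treg (x axis) and in Tconv (y axis) for the 38 genes; the dotted line marks equal effects and red marks the 16 genes whose effects differed at an adjusted p under 0.05. Hk2 and Hif1a lie above the line, and Egln3, Epas1, Mxi1, Ero1l and Bnip3 below it.

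Treg were compared with Tconv within each tissue, again averaged over treatments. In liver 18 of the 38 genes were higher in Treg and 11 lower, where 51.8% of all genes were called, 24.7% higher and 27.1% lower. In spleen 15 were higher and 11 lower, where 39.7% were called, 19.4% higher and 20.3% lower. Libraries did not overlap within either treatment for 13 of the 38 genes in liver (23.5% of all genes) and 20 in spleen (19.6%). Of the 38 genes, by edgeR calls, 12 were higher in Treg in both tissues and 8 lower in both. Sharing over all genes was not counted here either. Only Hk2 was called in opposite directions, lower in liver Treg (0.43 times, log2 -1.22 ± 0.31, adjusted p = 0.00143) and higher in spleen Treg (2.03-fold, log2 1.02 ± 0.32, adjusted p = 0.0116). The spleen call of Hk2 was lost without spleen Treg control 1 (log2 0.75, adjusted p = 0.0775) and without spleen controls 2 and 3 (adjusted p = 0.0828).

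The lactate exporter Slc16a3, the hydroxylase Egln3 and the aldolase Aldoc had the 3 largest fold rises among the 38 in liver Treg over liver Tconv. Slc16a3 was 7.25-fold higher in Treg in liver (log2 2.86 ± 0.16) and 6.03-fold in spleen, so that spleen Treg, at 12.6 to 31.3 CPM, overlapped liver Tconv at 13.4 to 19.7 CPM. Aldoc, the brain aldolase, stood at 17.1 to 27.5 CPM in liver Treg and 2.89 to 7.23 in liver Tconv (4.91-fold, adjusted p = 4e-14), and was 2.93-fold higher in spleen Treg. Eno2, the neuronal enolase of the wider glycolysis list, was likewise higher in Treg in liver (log2 3.51 ± 0.33) and spleen (log2 2.05 ± 0.31). Eno3 was 1.96-fold higher in liver Treg and 3.21-fold in spleen Treg, and Tpi1 2.08-fold and 1.61-fold. Slc2a3 was 1.68-fold higher in liver Treg and 3.23-fold in spleen Treg. Its 4 ranges were 171 to 238 CPM in liver Treg, 99.7 to 161 in liver Tconv, 191 to 283 in spleen Treg and 58.5 to 92.9 in spleen Tconv.

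Of the 7 hypoxia-induced genes 5 were higher and 0 lower in liver Treg, and 3 were higher and 1 lower in spleen Treg. Of all genes, 24.7% were higher and 27.1% lower in liver Treg, and 19.4% and 20.3% in spleen Treg. Of the 5 higher in liver, Ero1l turned its sign within control libraries alone (log2 -0.13, adjusted p = 0.528), Ddit4 was lost there (adjusted p = 0.0831), and P4ha1 was lost within CCl4 libraries alone (adjusted p = 0.243). The spleen call of Bnip3 was lost within controls alone (adjusted p = 0.0846). Of the 5 genes of HIF and its regulators 2 were higher and 3 lower in liver Treg, and 2 each way in spleen Treg. Egln3 was 5.18-fold higher in liver Treg (log2 2.37 ± 0.14, adjusted p = 7.17e-15) and 2.22-fold in spleen Treg. Bnip3 was 3.08-fold and 1.4-fold higher, and Mxi1 2.65-fold and 1.5-fold. Hif1a was 2.23-fold higher in spleen Treg (384 to 675 CPM against 186 to 311, without overlap) and 1.26-fold in liver Treg, where the ranges overlapped and the call was lost within CCl4 libraries alone (adjusted p = 0.0573). Epas1 ran the other way, at 0.511 times the Tconv level in liver and 0.152 times in spleen. Egln1 was lower in Treg as well, at 0.812 and 0.631 times, and its liver call was lost within CCl4 libraries alone (adjusted p = 0.328). Vegfa, scarce throughout, was not called in liver (adjusted p = 0.134) and was lower in spleen Treg (log2 -2.01 ± 0.53, adjusted p = 0.00286), a call that was lost without spleen controls 2 and 3 (adjusted p = 0.233).

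On the side of pyruvate use, Pdk1 was at 0.338 times the Tconv level in liver Treg (log2 -1.56 ± 0.11) and 0.376 times in spleen Treg (log2 -1.41 ± 0.11). Of the Slc16 family, Slc16a1 was at 0.509 and 0.684 times the Tconv level, and Slc16a5, not a known lactate or pyruvate carrier, at 0.0263 and 0.0578 times. Pdha1, the catalytic subunit that Pdk1 acts on, was not called in either tissue and stood between 149 and 201 CPM in all 32 libraries. Aldoa and Eno1 were lower in Treg in both tissues, by at most 0.55 on the log2 scale. The liver call of Aldoa (log2 -0.16 ± 0.06, adjusted p = 0.0304) was lost when any of 6 single libraries was left out (liver Treg control 1 or 3, liver Treg CCl4 1 or 2, liver Tconv control 2, liver Tconv CCl4 5; adjusted p up to 0.16) and its sign turned within CCl4 libraries alone (log2 0.11).

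Within control libraries alone the liver calls of Slc2a1 (adjusted p = 0.0623), Pfkl (0.403), Pfkp (0.741), Pfkfb4 (0.0918), Pgk1 (0.267), Pgam1 (0.341), Eno1 (0.285), Pkm (0.318) and Vhl (0.1) were lost, and so was the spleen call of Ldhb (0.0799). Within CCl4 libraries alone Vhl was lost in liver (adjusted p = 0.151), and Pfkfb3 (0.136) and Pgam1 (0.454) in spleen. The spleen call of Pgam1 was also lost with its copy added (adjusted p = 0.0721) and without spleen controls 2 and 3 (0.0949), the latter also for Gpi1 (0.392) and Pfkm (0.112). Other calls were lost by leaving out single libraries. In liver, Pfkl was lost without liver Treg control 2 (log2 0.13, adjusted p = 0.0595), Pfkp without liver Treg control 1 or liver Tconv control 2 (adjusted p up to 0.0942), and Vhl without liver Treg control 3 or liver Tconv control 2 (adjusted p up to 0.11). In spleen, Gpi1 was lost on leaving out any of 10 libraries (spleen Treg controls 2 and 3, spleen Treg CCl4 1, 3 and 4, spleen Tconv controls 1 and 3, and spleen Tconv CCl4 2, 3 and 5; adjusted p up to 0.122). Pfkm was lost on leaving out any of 13 of the 16 spleen libraries, all but spleen Treg control 2, spleen Treg CCl4 4 and spleen Tconv CCl4 5 (adjusted p up to 0.144).

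Most calls of the 38 genes for CCl4 were in liver Treg. There 8 were higher and 4 lower after CCl4, 12 of 38, where 14.9% of all genes were called, 7.55% higher and 7.34% lower. The median log2 fold change of the 38 genes was 0.17 in liver Treg and 0.13 in spleen Treg. It was -0.01 in liver Tconv and 0.03 in spleen Tconv. Over all genes it was -0.01 in liver Tconv and 0.0 in each other population. The counts in the other populations were 0 in liver Tconv (0.326% of all genes, 0.146% higher and 0.181% lower), 1 higher in spleen Treg (1.18%, 0.758% higher and 0.42% lower) and 1 higher in spleen Tconv (1.07%, 0.653% higher and 0.414% lower). In liver Tconv 0 of the 38 were called by edgeR or by DESeq2, and 4 had an unadjusted p under 0.05 by edgeR. In liver Treg 14 of the 38 genes had control and CCl4 libraries that did not overlap, 11 upward and 3 downward, where 19.1% of all genes did not overlap. That count was 1 in liver Tconv (6.65% of all genes), 7 in spleen Treg (10.9%) and 8 in spleen Tconv (8.82%). The summed level of 8 of 8 endothelial markers was 202 to 221 CPM in liver Treg controls and 102 to 123 CPM after CCl4. Most of it was Pecam1, at 190 to 210 CPM in controls and 95.2 to 122 CPM after CCl4, and Stab2 was at 0 in 4 of the 5 CCl4 libraries. In spleen Treg controls the same 8 markers summed to 171 to 222 CPM, with Clec4g and Tek at 0. The sum is therefore not specific to liver endothelium. In liver Treg 10 of 10 hepatocyte markers summed to 39.5 to 71.5 CPM in controls and 6.18 to 220 CPM after CCl4. Their part in the values below was not tested.

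**Figure D5:**
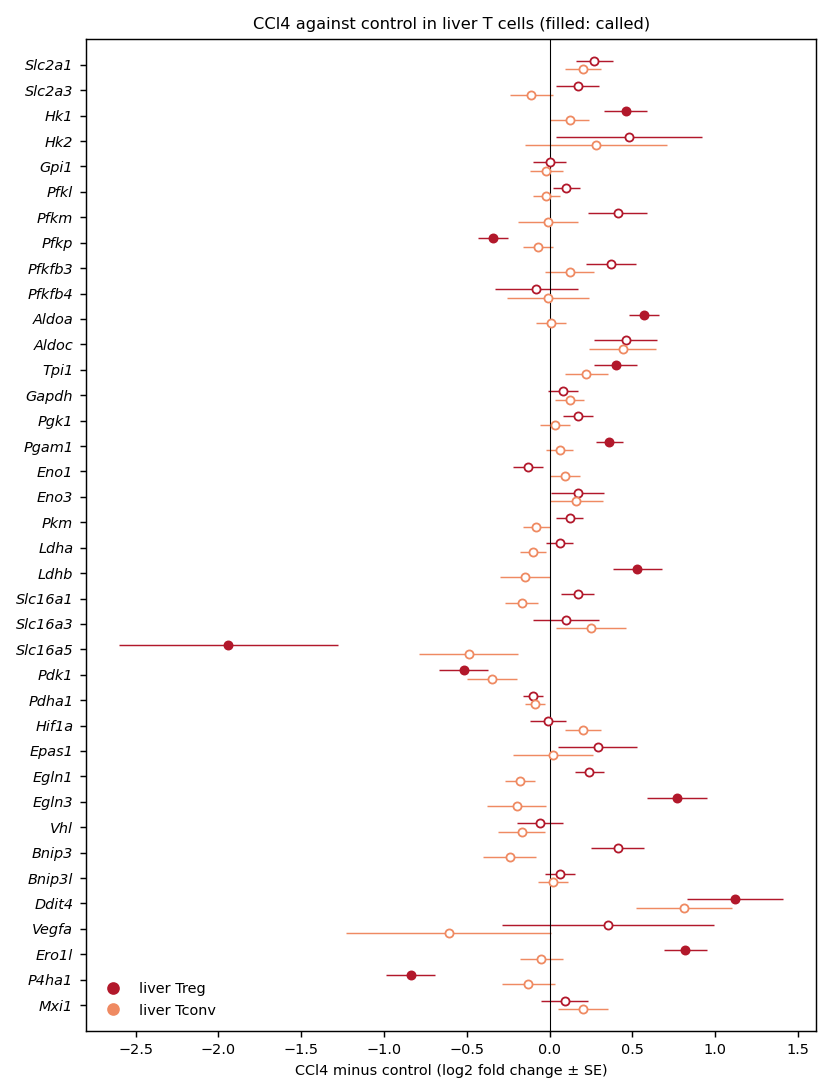
CCl4 minus control (log2 fold change ± SE) for the 38 genes in liver Treg (dark red) and liver Tconv (orange); filled points are calls at an adjusted p under 0.05. The 12 filled points all belong to liver Treg, with Ddit4 at 1.12 and P4ha1 at -0.84.

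The calls in liver Treg that no tested alternative removed were those of Aldoa, Pgam1, Egln3, Ero1l and P4ha1. Ero1l stood at 114, 121 and 110 CPM in the controls and at 141, 227, 225, 202 and 217 CPM after CCl4. Every CCl4 library was above every control, by 1.76-fold in the fit (log2 0.82 ± 0.13, adjusted p = 6.24e-05). Aldoa stood at 434, 549 and 409 CPM and at 614, 629, 736, 689 and 764 CPM, also without overlap (1.48-fold, log2 0.57 ± 0.09, adjusted p = 4.19e-05). Egln3 stood at 68.8, 80.8 and 58.6 CPM and at 97.8, 123, 147, 105 and 118 CPM (1.7-fold, log2 0.77 ± 0.18, adjusted p = 0.00418). Pgam1, a phosphoglycerate mutase, stood at 133, 126 and 126 CPM and at 182, 143, 178, 160 and 161 CPM (1.28-fold, adjusted p = 0.00237). P4ha1 fell, from 246, 232 and 207 CPM to 131, 136, 144, 99.8 and 127 CPM, the highest CCl4 library lying far below the lowest control (0.558 times, log2 -0.84 ± 0.15, adjusted p = 0.000255).

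Ddit4 had the largest rise, 2.17-fold (log2 1.12 ± 0.29, adjusted p = 0.00707), from 22.8, 46.3 and 52.5 CPM to 55, 97.4, 75.9, 96.5 and 115 CPM. Without liver Treg control 1, its lowest library, the difference was 0.83 and the call was lost (adjusted p = 0.0802). That control library also carried pancreatic transcripts, with 6 acinar markers summing to 1113 CPM against 4.97 to 15.3 CPM in the other 7 liver Treg libraries. In liver Tconv Ddit4 stood at 28.7, 27.6 and 18.6 CPM and at 41.3, 47.2, 37.5, 46.8 and 45.1 CPM. These did not overlap either, but the difference was not called (log2 0.81 ± 0.29, adjusted p = 0.213). In spleen controls Ddit4 was unsteady, with 31.9, 54.2 and 78.8 CPM in Treg and 33.3, 54.6 and 79.7 CPM in Tconv libraries of the same sample numbers.

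The other rises in liver Treg were those of Hk1 (1.37-fold, adjusted p = 0.0132), Tpi1 (1.32-fold, adjusted p = 0.043) and Ldhb (1.44-fold, adjusted p = 0.0173). Hk1 was lost without liver Treg control 1 (log2 0.30, adjusted p = 0.158). Tpi1 was lost without liver Treg control 1 or 3 or liver Treg CCl4 1, 3 or 5 (adjusted p up to 0.282), and Ldhb without liver Treg control 1 or 2 or liver Treg CCl4 4 (adjusted p up to 0.0836). With the liver Treg libraries fitted alone, Tpi1 (adjusted p = 0.0567) and Ldhb (0.0684) were not called. Among the falls, Pdk1 went from 88.8, 108 and 116 CPM to 81.1, 60, 83, 78.1 and 60.8 CPM (log2 -0.52 ± 0.15, adjusted p = 0.0162) and was lost without liver Treg control 2 or 3 (adjusted p up to 0.0977). Pfkp went from 350, 420 and 368 CPM to 306, 304, 295, 276 and 317 CPM (log2 -0.34 ± 0.09, adjusted p = 0.0103) and was lost without liver Treg control 2 (log2 -0.26, adjusted p = 0.106). Slc16a5 was near the limit of detection, at 1.16, 0.0965 and 0.505 CPM in controls and 0, 0.177, 0, 0.303 and 0.316 CPM after CCl4. Its call (adjusted p = 0.0451) was lost on leaving out liver Treg control 1 or 3 or liver Treg CCl4 1, 2 or 3 (adjusted p up to 0.614), and with the liver Treg libraries fitted alone (0.295).

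Hif1a itself was not called in liver Treg, at 638, 726 and 825 CPM in controls and 646, 718, 799, 636 and 818 CPM after CCl4 (log2 -0.01, adjusted p = 0.968). Mxi1, Slc16a3 and Vegfa, which separated liver from spleen, were not called for CCl4 either. Slc2a1 stood at 153, 136 and 133 CPM and at 171, 173, 159, 167 and 177 CPM, without overlap, and was not called (log2 0.27 ± 0.11, adjusted p = 0.0936). Bnip3 did not overlap either (log2 0.41 ± 0.16, adjusted p = 0.0768).

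In spleen the only called genes were Hif1a in Treg and Pgam1 in Tconv. Hif1a stood at 384, 398 and 450 CPM in spleen Treg controls and at 525, 523, 599, 675 and 514 CPM after CCl4 (1.38-fold, log2 0.47 ± 0.11, adjusted p = 0.0331). The call was lost without any of the 3 controls or without CCl4 library 3 or 4 (adjusted p up to 0.229), and without spleen controls 2 and 3 (log2 0.56, adjusted p = 0.547). Markers of myeloid cells, which also express Hif1a, moved with it: 14 of 14 were matched, and they summed to 24.2 to 30.5 CPM in spleen Treg controls and 72.8 to 130 CPM after CCl4. Their part in the Hif1a value was not tested. Pgam1 stood at 90, 89.1 and 95.8 CPM in spleen Tconv controls and at 122, 121, 103, 104 and 131 CPM after CCl4 (1.27-fold, adjusted p = 0.0332). The myeloid markers summed to 16.3 to 20.7 CPM in spleen Tconv controls and 23.8 to 48.4 CPM after CCl4, with Clec4f and Vsig4 at 0 in both, and their part in the Pgam1 value was not tested. Pgam1 shares reads with 1 near-identical copy that took 0.493% to 14.3% of their joint counts, and with the copy added the call was lost (log2 0.27, adjusted p = 0.0879). It was also lost without spleen Tconv control 2 or 3 or spleen Tconv CCl4 1, 2 or 5 (adjusted p up to 0.272), and without spleen controls 2 and 3 (log2 0.37, adjusted p = 1).

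A gene called in liver Treg and not elsewhere is not thereby shown to differ, so the effects were compared directly. The CCl4 effect in liver Treg exceeded that in liver Tconv for 3 of the 38 genes, where 3.64% of all genes were called in this test, 1.88% positive and 1.77% negative. They were Ero1l (difference 0.87 ± 0.18 on the log2 scale, adjusted p = 0.00472), Aldoa (0.55 ± 0.12, adjusted p = 0.00772) and Egln3 (0.96 ± 0.26, adjusted p = 0.0293). In liver Tconv Ero1l stood at 121, 137 and 118 CPM in controls and at 163, 98.2, 112, 108 and 126 CPM after CCl4, which overlap, and Egln3 at 19.5, 20.1 and 16.6 CPM and at 21.8, 15.1, 14.2, 14.9 and 15.5 CPM. The difference of Aldoa was lost without liver Tconv control 2 (log2 0.44, adjusted p = 0.0514). That of Egln3 was lost without liver Treg control 1 or 3, liver Treg CCl4 3, liver Tconv control 1 or 2, or liver Tconv CCl4 2 or 3 (adjusted p up to 0.0977). With the liver libraries fitted alone only Egln3 was called, with Ero1l at an adjusted p of 0.052 and Aldoa at 0.0728.

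Against the CCl4 effect in spleen Treg, 2 of the 38 genes differed, where 5.48% of all genes were called, 2.02% positive and 3.46% negative. The median difference over the 38 genes was -0.01 on the log2 scale, beside 0.01 over all genes. Ddit4 had the more positive effect in liver Treg (1.49 ± 0.39, adjusted p = 0.0214) and Pfkp the more negative one (-0.58 ± 0.13, adjusted p = 0.00645). Without spleen controls 2 and 3 neither was called (adjusted p = 0.487 and 0.0541). Ddit4 was also lost without liver Treg control 1 or without spleen Treg control 3 (adjusted p up to 0.123).

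Genes of the surrounding pathways were read from lists that were set beside the 38 genes. Of 24 other glycolytic enzymes and isoforms that passed the filter, 5 were higher and 5 lower in liver Treg than in spleen Treg, and 7 and 4 in Tconv, where 60.6% and 55% of all genes were called. These 10 and 11 of 24 are below those shares. The pentose phosphate pathway, which branches from glycolysis to make NADPH and ribose, showed 7 of 9 genes lower in liver and 1 higher in each cell type. Among them were the dehydrogenase Pgd (log2 -0.44 ± 0.06 in Treg) and the transaldolase Taldo1 (log2 -0.42 ± 0.06 in Tconv). Of 17 genes of pyruvate entry into mitochondria and the malate-aspartate shuttle, 6 were higher and 5 lower in liver Treg (median log2 -0.12), and 3 higher and 5 lower in liver Tconv (median -0.08). Got1, the cytosolic aspartate aminotransferase of the malate-aspartate shuttle, averaged 474 CPM in liver Treg and 56.2 CPM in spleen Treg (log2 3.04 ± 0.08, adjusted p = 7.59e-23), and 347 against 45.2 CPM in Tconv. In Treg the kinase Pdk2 was lower in liver (log2 -1.0 ± 0.1, adjusted p = 1.56e-09) and the shuttle's malate dehydrogenase Mdh1 higher (log2 0.47 ± 0.05). In Tconv the phosphatase Pdp1 was higher (log2 1.05 ± 0.11) and the complex component Pdhx lower (log2 -0.63 ± 0.09). Of 45 other genes of the HIF pathway and hypoxia response, 21 were higher and 12 lower in liver Treg, and 22 and 9 in liver Tconv, among them Rora (log2 3.15 ± 0.13 and 3.19 ± 0.13) and Ndrg1 (log2 1.74 ± 0.12 in Treg).

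After CCl4 in liver Treg 14.9% of all genes were called, 7.55% higher and 7.34% lower. With both directions counted together, the lists gave shares near 14.9%. The same 45 genes gave 7 higher and 1 lower, with Ier3 (log2 1.88 ± 0.5), Mif (log2 0.39 ± 0.10) and Higd1a (log2 0.46 ± 0.13) of lowest adjusted p. Of the 24 glycolytic enzymes 4 were higher and 1 lower, including the mutarotase Galm (log2 0.58 ± 0.15) and the ADP-dependent glucokinase Adpgk (log2 -0.57 ± 0.13). Upstream regulators of glycolysis in T cells gave 0 higher and 5 lower of 26, led by Foxo1 (log2 -0.46 ± 0.08), the mTORC2 subunit Rictor (log2 -0.50 ± 0.09) and the kinase Akt2 (log2 -0.39 ± 0.08). In the pentose phosphate pathway the entry enzyme G6pdx (log2 -0.38 ± 0.08) and transketolase Tkt (log2 -0.27 ± 0.07) were lower and 0 of 9 were higher. Of the 17 genes of pyruvate entry and the malate-aspartate shuttle, 2 were higher and 0 lower.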

How the data were processed

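The submitters' processing notes name bcl2fastq 2.19, kallisto 0.44.0, DESeq2 (no version) and the build GRCm38.p6. Libraries were made with the Clontech Ultra Low v4 and NexteraXT kits, per the labels' protocols. Annotation release and strandedness: not given in the sources used here. The deposited tables hold estimated counts and TPM for 118489 transcripts, per the file headers.

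Estimated counts were summed to genes with GENCODE M21 transcript names (98.5% of transcripts matched, the rest holding 0.684% to 0.823% of counts) and rounded. Of 2 gene IDs with the symbol Aldoa, the one that holds nearly all its counts was used. edgeR 4.0.16 (filterByExpr, TMM, 1 quasi-likelihood fit of 8 groups, 24 residual degrees of freedom) tested 17159 genes. SE is approximate, |log2 fold change| over the root of F. Near-identical copies were found with blastn 2.17.0 at 95% identity over 200 bases or more. The fit was tested on simulated data.

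All 38 genes could be named, with full statistics for called ones. Other pathway genes were named only where called, at most the 3 of lowest adjusted p in a list. The genes, lists and comparisons were chosen with earlier results of these data known. Alternatives were other size factors, no filter, DESeq2 1.42.0, separate fits, blocks by sample number, 1 treatment only, summed copies and leaving out each library. Leaving out spleen controls 2 and 3 was added after seeing the data.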

Additional observations from a re-analysis of the deposited data

Results flagged for a closer look

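Single libraries stood apart from the other 4 of their CCl4 group in 16 of 152 groups looked at, by Dixon's criterion at 0.71 for 5 samples; chance gives about 5% of groups. Spleen Tconv CCl4 1 was highest for Tpi1 (105.7 CPM) and Pgk1 (191.8 CPM), and spleen Tconv CCl4 4 for Slc16a3 (3.817 CPM) and Hif1a (311.1 CPM). Spleen Tconv CCl4 2 was highest for Ddit4 (51.93 CPM) and lowest for Vhl (34.3 CPM). In spleen Treg, CCl4 1 was highest for Pfkfb3 (27.23 CPM) and Ero1l (71.01 CPM) and CCl4 4 for Tpi1 (184.9 CPM). In liver Tconv, CCl4 5 was highest for Gpi1 (312.2 CPM), Eno1 (1741 CPM) and Mxi1 (151.4 CPM), CCl4 1 for Slc2a3 (161.2 CPM) and Egln3 (21.76 CPM), and CCl4 3 for Pfkfb3 (32.33 CPM). In liver Treg, CCl4 2 was highest for Vegfa (6.917 CPM). Causes were not tested.

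Effects that differed between groups, by the edgeR test of the difference with adjusted p under 0.05, are given on the log2 scale. The CCl4 effect in liver Treg minus that in liver Tconv was 0.55 for Aldoa, 0.96 for Egln3 and 0.87 for Ero1l. The CCl4 effect in liver Treg minus that in spleen Treg was 1.49 for Ddit4 and -0.58 for Pfkp. The liver to spleen difference in Treg minus that in Tconv was 1.75 for Epas1, 1.22 for Egln3, 1.14 for Bnip3, 0.82 for Mxi1, 0.75 for Aldoc, 0.56 for Pfkm, 0.47 for Ero1l, 0.38 for Aldoa and 0.36 for Egln1. It was -2.24 for Hk2, -0.94 for Slc2a3, -0.83 for Hif1a, -0.71 for Eno3, -0.45 for Ldhb, -0.44 for Gapdh and -0.43 for Slc16a1.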

How the results depend on the processing

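Of 147 calls of the 38 genes over 11 comparisons, 84 were kept under every alternative, 63 were lost in at least 1 and 3 of these also changed sign in at least 1; 42 values that were not called were called in at least 1. Leaving out 1 library at a time gave 8 to 12 calls for CCl4 in liver Treg, 0 to 0 in liver Tconv and 0 to 1 in either spleen population. It gave 29 to 30 and 28 to 31 for liver against spleen in Treg and Tconv, 26 to 31 and 24 to 25 for Treg against Tconv in liver and spleen, 1 to 4 and 1 to 3 for the differences of the CCl4 effect in liver Treg from liver Tconv and spleen Treg, and 15 to 22 for the difference between the tissue effects. The call in spleen Treg became 0 with the libraries compared alone and without spleen controls 2 and 3. The call in spleen Tconv became 0 with no filter, with copies summed, with the libraries compared alone and without spleen controls 2 and 3, and became 2 with DESeq2. With control libraries only, Treg against Tconv in liver gave 18 and the difference between tissue effects 7. The difference of CCl4 effects from liver Tconv gave 1 alone and 6 with DESeq2, and that from spleen Treg gave 4 alone, 0 without spleen controls 2 and 3 and 5 with DESeq2. The causes were not tested.

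Signs changed, on the log2 scale, for liver against spleen with CCl4 libraries only in Pfkp in Treg (-0.0034), Ldha in Tconv (-0.05) and Ddit4 in Tconv (0.26), and with control libraries only in Ddit4 in Treg (-0.44). For Treg against Tconv in liver they changed in Aldoa with CCl4 libraries only (0.11) and Ero1l with control libraries only (-0.13), and for the difference between tissue effects in Pfkp (0.05) and Pgam1 (-0.17) with control libraries only. For the share of the M2 form of Pkm, leaving out 1 library moved the CCl4 difference to between -0.69 and -0.007 points in liver Treg and to between -1.064 and -0.525 points in liver Tconv. In spleen it lay between -0.507 and -0.009 for Treg and between -0.77 and -0.531 for Tconv. The other ranges were 0.125 to 0.467 and -0.45 to -0.18 for liver against spleen in Treg and Tconv, 0.377 to 0.723 for Treg against Tconv in liver and -0.158 to 0.091 in spleen.

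Groups share sample numbers, and the labels do not say what a number stands for. Same-numbered libraries correlated above 0.1 in 0 of 3 pairs for each CCl4 comparison. Above 0.1 were 2 and 3 of 8 for liver against spleen and 4 and 7 of 8 for Treg against Tconv. As a hint of pairing, 10, 13, 15 and 15 of 16 libraries correlated best with their own number in those 4 comparisons. For Treg against Tconv, same-numbered pairs correlated at 0.06 to 0.219 in liver and 0.073 to 0.347 in spleen. Medians of the other pairs were -0.0405 and -0.048. The labels do not state a pairing, so the numbers were not taken as pairs. The main p-values therefore ignore any pairing. For the CCl4 comparisons the block was the sample number alone, which joins control and CCl4 libraries. Calls were then 10 in liver Treg and 0 in spleen Treg. For the other comparisons the block was treatment and sample number together. It gave 29 and 29 for liver against spleen and 29 and 25 for Treg against Tconv. It gave 4 and 4 for the differences of CCl4 effects and 20 for the difference between tissue effects.

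Hk2, Epas1, Vegfa and Slc16a5 have few reads in some groups, which limits their fold changes.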
